A study of Homo sapiens with 12 samples.

Results

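MAP2 and 9 other genes whose products bind microtubules are described here across 12 microarrays of HK-2, an immortalised cell line from human kidney proximal tubule. The 10 genes are MAP2, MAP1A, MAP1B, MAP1S, MAP4, MAP7, MAPT, STMN1, MAPRE1 and MAPRE2. They were taken by name, with earlier results of these data known. Of them, 8 passed a level filter that left 10626 genes to test. The filter asked for a log2 value above 4 in at least 3 of the 12 arrays, and values under 4 are called below the floor. Cells were exposed to a compound called Di or to its vehicle, and the 4 groups were Di for 12 h, control for 12 h, Di for 48 h and control for 48 h. All cells belong to this 1 line, and each group holds 3 arrays of biological replicates (n = 3 throughout). The identity and dose of Di and the nature of the vehicle are not given in the sources used here. MAP2 was chosen by its measured difference between Di and control at 48 h, so that difference is described with no test. For each other gene, 1 probe set was taken, the one with the highest mean over the 12 arrays, and a probe set marked for possible cross-hybridisation (suffix _x_at) only where no other existed. That choice used levels over all arrays and no contrast between groups.

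Microtubules are hollow polymers of tubulin that grow and shrink at their ends, and microtubule-associated proteins set how stable they are and what they carry. MAP2, MAP4 and tau (the product of MAPT) share a C-terminal repeat domain that binds along the lattice. MAP2 is best known from neuronal dendrites, tau from axons, and MAP4 from cells outside the nervous system. MAP1A, MAP1B and MAP1S are made as precursors cut into heavy and light chains. MAP7 recruits kinesin-1, stathmin (STMN1) holds free tubulin dimers and favours shrinkage, and the end-binding proteins MAPRE1 (EB1) and MAPRE2 (EB2) ride on growing plus ends. Proximal tubule cells depend on microtubules for the traffic between their apical and basal membranes.

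Arrays of 1 group correlated at 0.986 to 0.996 over the probe sets past the filter (Pearson). The array farthest from the mean of its group was replicate 2 of Di at 12 h, at a root mean square distance of 0.252 (log2), and the other 11 arrays lay at 0.111 to 0.182. The 3' probe set of actin exceeded the 5' one, a gap that follows RNA integrity and labelling, by 1.22 ± 0.239 in Di at 12 h, against 1.71 ± 0.178 in control at 12 h (SD). The exact permutation test gave a two-sided p of 0.1, and 3 arrays against 3 cannot give less. The gap at 48 h came to 1.41 ± 0.0776 in Di, against 1.33 ± 0.128 in control (p = 0.5 by the same exact test). For GAPDH the gap at 12 h was 0.0518 ± 0.0994 in Di and 0.126 ± 0.0841 in control (exact test p = 0.3). At 48 h the GAPDH gap was -0.0340 ± 0.0396 in Di and 0.000125 ± 0.0206 in control (exact test p = 0.2). The part of these differences in the results at 12 h was not tested. An array of a whole culture cannot tell fewer cells with a transcript from less transcript per cell.

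The regions around the starts of MAP2 and STMN1, the members with the largest differences at 48 h in either direction, are shown with their sequence from RefSeq (GRCh38.p14). Each window runs from 250 bases before a transcript start to 50 after it, and RefSeq windows were at hand for 9 of the 10 members, 20 windows in all. MAP2 lies on chromosome 2 at 209424047 to 209734112 on the plus strand, and all 3 of its windows fall inside that span. STMN1 lies on chromosome 1 at 25884179 to 25906880 on the minus strand. Capitals mark letters that match 1 of 4 short motifs, searched on both strands. These were TGACNNNGC (the core of the antioxidant response element), TGANTCA (AP-1), TTTNGCGC (E2F) and CACGTG (E-box), with N for any base. The motifs were picked after the expression values were known.
MAP2 at chr2:209661246-209661545, plus strand: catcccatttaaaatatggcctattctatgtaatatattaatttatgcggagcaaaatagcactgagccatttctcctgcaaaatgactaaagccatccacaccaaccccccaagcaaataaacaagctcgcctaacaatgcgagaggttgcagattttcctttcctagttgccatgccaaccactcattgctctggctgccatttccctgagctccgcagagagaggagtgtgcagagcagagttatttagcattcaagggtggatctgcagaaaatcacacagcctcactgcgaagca
MAP2 at chr2:209579357-209579656, plus strand: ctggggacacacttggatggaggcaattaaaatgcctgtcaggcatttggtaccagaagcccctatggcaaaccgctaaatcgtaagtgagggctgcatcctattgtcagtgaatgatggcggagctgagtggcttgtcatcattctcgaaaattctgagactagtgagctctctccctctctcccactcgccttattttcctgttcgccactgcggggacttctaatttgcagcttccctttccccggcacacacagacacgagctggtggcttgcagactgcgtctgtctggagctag
STMN1 at chr1:25906370-25906669, minus strand: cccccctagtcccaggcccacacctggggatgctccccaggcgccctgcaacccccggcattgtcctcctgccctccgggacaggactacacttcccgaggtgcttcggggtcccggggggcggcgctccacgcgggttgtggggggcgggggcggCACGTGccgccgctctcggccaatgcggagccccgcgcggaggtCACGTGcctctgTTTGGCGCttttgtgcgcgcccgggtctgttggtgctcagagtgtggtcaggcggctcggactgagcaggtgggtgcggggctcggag
None of the 4 motifs was in the 3 MAP2 windows or the 2 MAP1B windows, which says only that these letters are absent there. This STMN1 window, 1 of 3 for the gene, held the E2F letters, beginning 38 bases before the start, and the E-box letters at 94 and 50 bases before it. Among the other members, the E-box letters were in both windows of MAPRE2 and in that of MAPRE1, which also held the AP-1 letters. The antioxidant response core was in 1 window each of MAPRE2, MAP4 and MAP1A. No motif was in the windows of MAP7 or MAP1S. Of 35116 RefSeq windows of the same length, 1.79% held the E2F letters, 7.26% the E-box, 7.71% the AP-1 letters and 13.3% the antioxidant response core. A match is a run of letters and was not tested as a binding site.

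MAP2 lay far higher in Di at 48 h than in any other group, and both of its probe sets showed this. With probe set 225540_at, MAP2 had log2 values of 11.43, 11.57 and 11.37 in Di at 48 h, against 6.32, 6.72 and 6.63 in control at 48 h. The lowest Di array lay 4.66 above the highest control array. The group means were 11.46 ± 0.102 in Di and 6.56 ± 0.211 in control (SD), a difference of 4.90 ± 0.229 (SE of the fit) or 29.9-fold, which placed MAP2 at rank 3 of the 10626 tested genes by log2 change. Probe set 210015_s_at gave 7.89, 7.99 and 7.74 in Di at 48 h, against 2.51, 2.48 and 2.51 in control at 48 h. All 9 arrays outside Di at 48 h were below the floor with this probe set, which therefore passed the filter only through the Di arrays. Its mean of 7.87 in Di at 48 h lay 14.6-fold above the floor, so its difference from control at 48 h is given only as at least 14.6-fold.

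**Figure D1:**
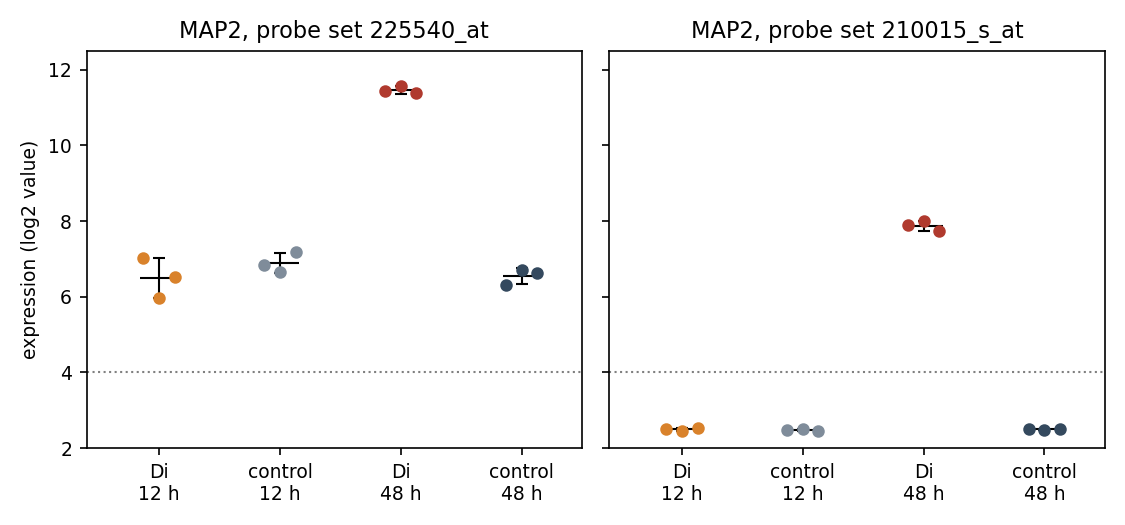
MAP2 by array, as log2 expression on the vertical axis, for each of its 2 probe sets, with 3 points per group, bars for mean and SD and a dotted line at the floor of 4. The Di arrays at 48 h lie at 11.37 to 11.57 and at 7.74 to 7.99, above all arrays of the other 3 groups.

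At 12 h no difference of MAP2 passed the test. Its values were 7.03, 5.97 and 6.52 in Di and 6.84, 6.65 and 7.19 in control (225540_at), and the groups overlapped. The change was -0.39 ± 0.229 (limma adjusted p = 0.284), and it stood at -0.12 without replicate 2 of Di at 12 h and at -0.24 without replicate 3 of control at 12 h. Without replicate 1 of Di at 12 h it stood at -0.65 (adjusted p = 0.0584). With 210015_s_at all 6 arrays at 12 h lay between 2.45 and 2.53. Between the control groups MAP2 differed by -0.34, 48 h minus 12 h, given with no test because the 48 h control arrays entered the choice of MAP2. By mean, Di at 48 h came first, followed by the 12 h control, the 48 h control and the 12 h Di group, and the last 3 overlapped with their neighbours.

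The 5 tested genes whose values followed MAP2 (225540_at) most closely over the 12 arrays were GSDME, POR, KCNJ2, PDLIM1 and AQP11, with Pearson r between 0.99 and 0.994. GSDME encodes the pore-forming protein gasdermin E, POR the reductase that feeds electrons to cytochromes P450, KCNJ2 a potassium channel, PDLIM1 an actin-linked adaptor and AQP11 an aquaporin. POR averaged 10.30 ± 0.0969 in Di at 48 h, against 6.98 ± 0.0737 in control at 48 h (SD). AQP11 averaged 4.63 ± 0.0881 in Di at 48 h and was below the floor in the other 3 groups, so it passed the filter only through those Di arrays. In all, 211 genes had an r above 0.95. These values are a description, since the 3 arrays of Di at 48 h stand apart from the other 9 in each of these genes. Of the other members MAP1B came nearest, at r = 0.94.

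Of the MAP1 family, which links microtubules to other parts of the cell, MAP1B rose under Di at 48 h. MAP1B had 12.03, 12.03 and 12.07 in Di at 48 h, against 11.07, 11.31 and 11.25 in control at 48 h. No Di array overlapped a control array. The change was 0.84 ± 0.0883 (1.79-fold, limma adjusted p = 1.26e-05), and the other 2 probe sets of MAP1B gave 0.75 and 0.91 without overlap. At 12 h MAP1B had 11.18, 11.22 and 11.10 in Di and 10.87, 10.94 and 11.15 in control, which overlapped (0.18 ± 0.0883, adjusted p = 0.191). The change at 48 h exceeded that at 12 h by 0.65 ± 0.125 (adjusted p = 0.00175). Between the controls MAP1B differed by 0.22, 48 h minus 12 h (adjusted p = 0.0526), and 6 alternatives called it higher at 48 h (0.0138 to 0.0488). They included leaving out replicate 2 of Di at 12 h, replicate 3 of control at 12 h or replicate 1 of control at 48 h. Below Di at 48 h, the 48 h control came next, then the Di group of 12 h and its control, each overlapping the next.

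MAP1S, the short and widely expressed member of the family, lay just above the floor. It had 4.48, 4.29 and 4.24 in Di at 12 h, against 4.87, 5.19 and 4.83 in control at 12 h. The groups did not overlap, but the change of -0.62 ± 0.191 missed the threshold (limma adjusted p = 0.0529). It passed without replicate 1 or 3 of control at 48 h (0.0406 and 0.0146) and with the 12 h arrays alone (0.043). At 48 h the values were 4.38, 4.07 and 4.37 in Di and 4.44, 4.22 and 3.60 in control, the last of them below the floor (0.19 ± 0.191, adjusted p = 0.456). Control fell by 0.88 on the log2 scale between 12 h and 48 h (SE 0.191, adjusted p = 0.00251). The Di change at 48 h exceeded that at 12 h by 0.81 ± 0.271 (adjusted p = 0.0354). That call was lost without replicate 2 or 3 of Di at 12 h (0.0555 and 0.0731), replicate 1 or 3 of Di at 48 h (0.071 and 0.0732) or replicate 2 of control at 12 h (0.0849), and with no filter (0.089). MAP1A, a protein of mature neurons, was below the floor in all 12 arrays with each of its 3 probe sets, the highest value being 3.36.

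MAP4, the MAP of non-neuronal cells, fell early under Di. MAP4 had 9.48, 9.52 and 9.35 in Di at 12 h, against 9.81, 9.92 and 9.85 in control at 12 h, with no overlap. The change was -0.41 ± 0.0826 (1.33-fold lower, limma adjusted p = 0.00992), and the 4 other probe sets past the filter gave -0.71, -0.58, -0.52 and -0.03. At 48 h the probe set with the highest mean gave 9.92, 9.82 and 9.89 in Di and 10.02, 9.81 and 9.74 in control (0.02 ± 0.0826, adjusted p = 0.861). The 4 others lay higher in Di at 48 h, by 0.16 to 0.60, and averaging all 5 the change was 0.25 (adjusted p = 0.00626). The MAP4 change at 48 h exceeded that at 12 h by 0.43 ± 0.117 (adjusted p = 0.0131), or by 0.71 with that mean. Between the controls MAP4 differed by -0.0034, 48 h minus 12 h (adjusted p = 0.979). The other probe sets gave -0.18 to -0.71, 3 of them without overlap, and their mean with the first fell by 0.33 (adjusted p = 0.0011). By level on the first probe set, Di at 12 h lay below the other 3 groups, which overlapped.

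MAPT, which encodes tau, was below the floor in all 12 arrays with each of its 6 probe sets (highest value 3.10). Neither tau nor MAP1A can therefore be compared between the groups on these arrays.

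MAP7, the kinesin-1 recruiter of epithelial cells, fell under Di at 48 h. It had 9.50, 9.70 and 9.59 in Di at 48 h, against 10.01, 9.94 and 9.89 in control at 48 h. The groups did not overlap, and the change was -0.35 ± 0.103 (1.27-fold lower, limma adjusted p = 0.0149). The call was lost without replicate 1 of Di at 48 h (0.055), without replicate 1 of control at 48 h (0.0548) and when its 3 probe sets were averaged (-0.11, 0.39). The other 2 probe sets gave -0.01 and 0.04. At 12 h MAP7 had 9.50, 9.17 and 9.60 in Di and 9.72, 9.69 and 9.62 in control, also without overlap (-0.26 ± 0.103, adjusted p = 0.119, and -0.13 without replicate 2 of Di). Control at 48 h was the highest of the 4 groups and lay 0.26 ± 0.103 above control at 12 h (adjusted p = 0.0493). That p exceeded the threshold in 14 alternatives (0.0517 to 0.14), among them a replicate block, median centring, no filter, the probe set mean and leaving out any 1 of 10 arrays. Below it, the 12 h control and both Di groups overlapped in turn.

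STMN1 moved against MAP2 at 48 h. This gene, whose protein sequesters tubulin and is abundant in dividing cells, had 6.31, 6.11 and 6.26 in Di at 48 h, against 7.97, 7.99 and 7.91 in control at 48 h. The lowest control array exceeded the highest Di array. STMN1 fell by 1.73 on the log2 scale (SE 0.08, 3.31-fold, limma adjusted p = 1.91e-08). At 12 h STMN1 had 9.55, 9.41 and 9.64 in Di and 9.68, 9.57 and 9.54 in control, which overlapped (-0.06 ± 0.08, adjusted p = 0.649). Culture time went the same way, since control at 48 h lay below control at 12 h by -1.64 ± 0.08 (adjusted p = 4.05e-08). The 12 h groups were therefore highest and close to each other, control at 48 h lay between, and Di at 48 h was lowest. A second probe set that recognises STMN1 and the overlapping microRNA gene MIR3917 (217714_x_at) gave 7.997, 7.80 and 7.18 in Di at 48 h, against 8.05, 7.79 and 7.92 in control at 48 h. That probe set overlapped between the groups, so it did not follow the STMN1 probe set, and another (1552803_a_at) was below the floor in all arrays.

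The end-binding proteins were less uniform. MAPRE2 (EB2) had 7.73, 7.77 and 7.72 in Di at 48 h, against 7.17, 7.30 and 7.57 in control at 48 h. The groups did not overlap, and MAPRE2 rose by 0.39 ± 0.107 (1.31-fold, limma adjusted p = 0.00961). A second MAPRE2 probe set, close to the floor, gave the opposite at 48 h, with 3.44, 3.39 and 3.47 in Di and 4.03, 4.11 and 4.03 in control, and with the mean of both the change was -0.11 (adjusted p = 0.214). The 12 h values of MAPRE2 were 7.95, 7.92 and 8.06 in Di and 7.98, 7.82 and 7.66 in control (0.16 ± 0.107, adjusted p = 0.353). Control fell by 0.47 between 12 h and 48 h (SE 0.107, adjusted p = 0.00338), so control at 48 h was the lowest group while the other 3 overlapped in turn.

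MAPRE1 (EB1) had 11.68, 11.51 and 11.39 in Di at 48 h, against 11.27, 11.24 and 11.46 in control at 48 h. The groups overlapped and the change of 0.21 ± 0.127 missed the threshold (limma adjusted p = 0.204). Its other probe set gave 10.56, 10.58 and 10.47 in Di and 10.07, 10.19 and 10.13 in control, without overlap, and the mean of both was called higher at 48 h (0.31, adjusted p = 0.00871). At 12 h MAPRE1 had 11.88, 12.35 and 11.91 in Di and 11.79, 11.94 and 11.94 in control (0.15 ± 0.127, adjusted p = 0.452, and 0.0039 without replicate 2 of Di). The other probe set lay 0.35 higher in Di at 12 h without overlap, and the mean of both gave 0.25 (adjusted p = 0.071). Control at 48 h lay below control at 12 h by -0.57 ± 0.127 (adjusted p = 0.00296).

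**Figure D2:**
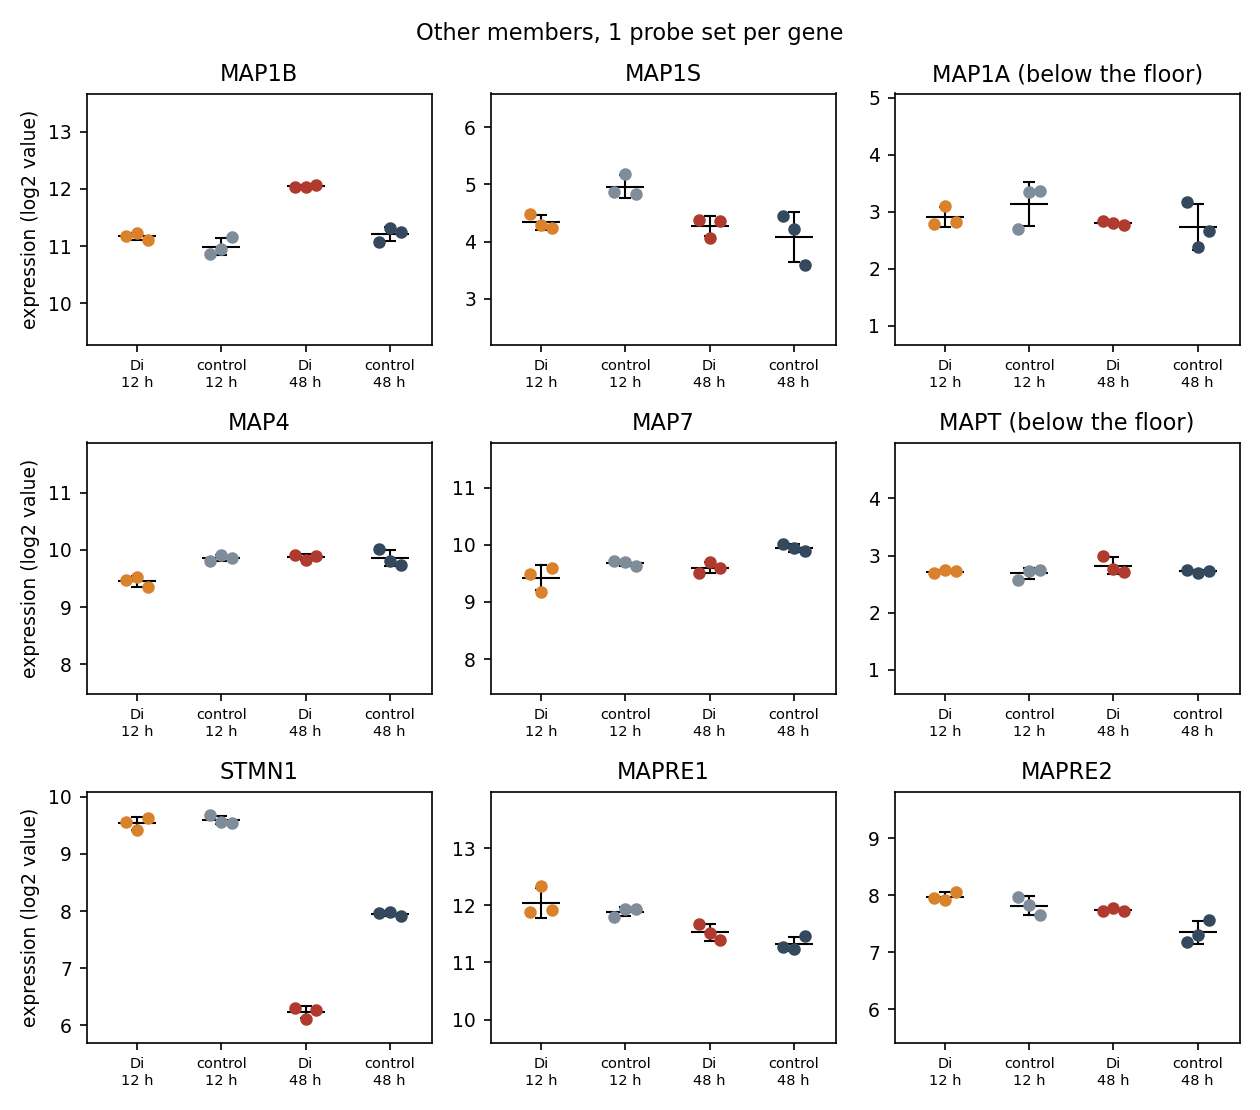
The 9 members other than MAP2 by array, 1 probe set per gene, as log2 expression on the vertical axis, with 3 points per group and bars for mean and SD. Every panel spans the same log2 range, so the drop of STMN1 to 6.11 to 6.31 in Di at 48 h can be set against the smaller shifts of the others, and MAP1A and MAPT lie below 4.

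Whether the members other than MAP2 were called more or less often than all genes was not tested. At 48 h 4 of the 7 measured were called, 2 higher (MAP1B and MAPRE2) and 2 lower (STMN1 and MAP7), where 50.9% of all tested genes were called, 22.9% higher and 28% lower. The groups did not overlap for 4 of the 7 at 48 h, where 61.6% of all genes did not. At 12 h 1 of the 7, MAP4, was called, and lower, against 13.7% of all genes called in either direction, 3.9% higher and 9.78% lower, and 3 did not overlap, against 34.8%. Their median change was 0.185 at 48 h and -0.0614 at 12 h, and over all tested genes it was -0.0188 and -0.0611. The change at 48 h differed from that at 12 h for 4 of the 7 (MAP1B, MAP1S, MAP4 and STMN1), 3 upward and STMN1 downward, where 38.3% of all genes were called, 19.8% upward and 18.5% downward. Between the controls 5 of the 7 were called, MAP7 higher and MAP1S, STMN1, MAPRE1 and MAPRE2 lower at 48 h, where 52.9% of all genes were called, 21.9% higher and 31% lower, and 5 did not overlap, against 65.1%.

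**Figure D3:**
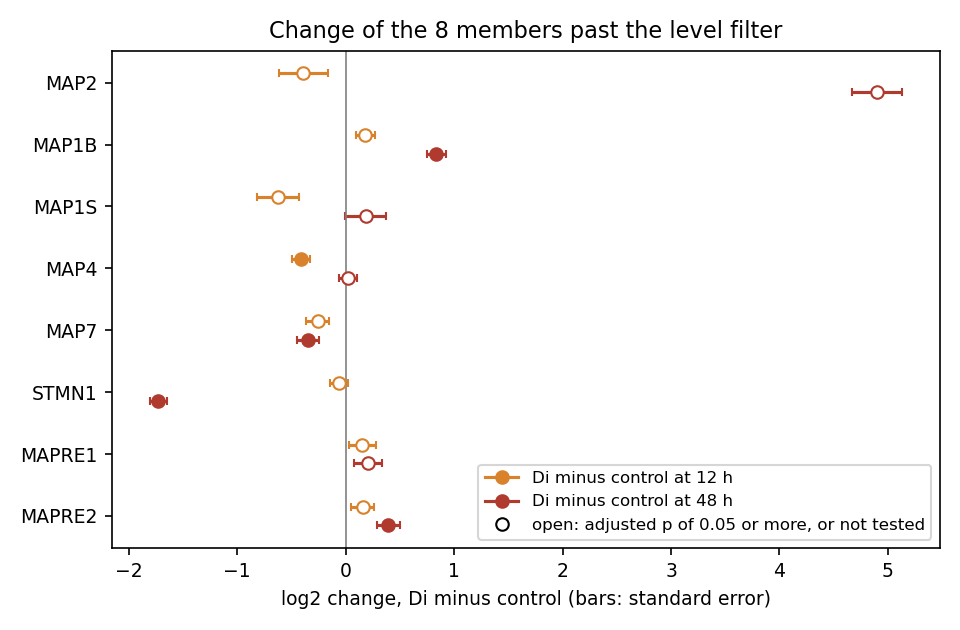
Log2 change of the 8 measured members, Di minus control, at 12 h and 48 h, with standard errors of the fit and filled points for an adjusted p under 0.05. MAP2 stands at 4.90 and STMN1 at -1.73 at 48 h, and the other members lie between -0.62 and 0.84 at either time.

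**Figure D4:**
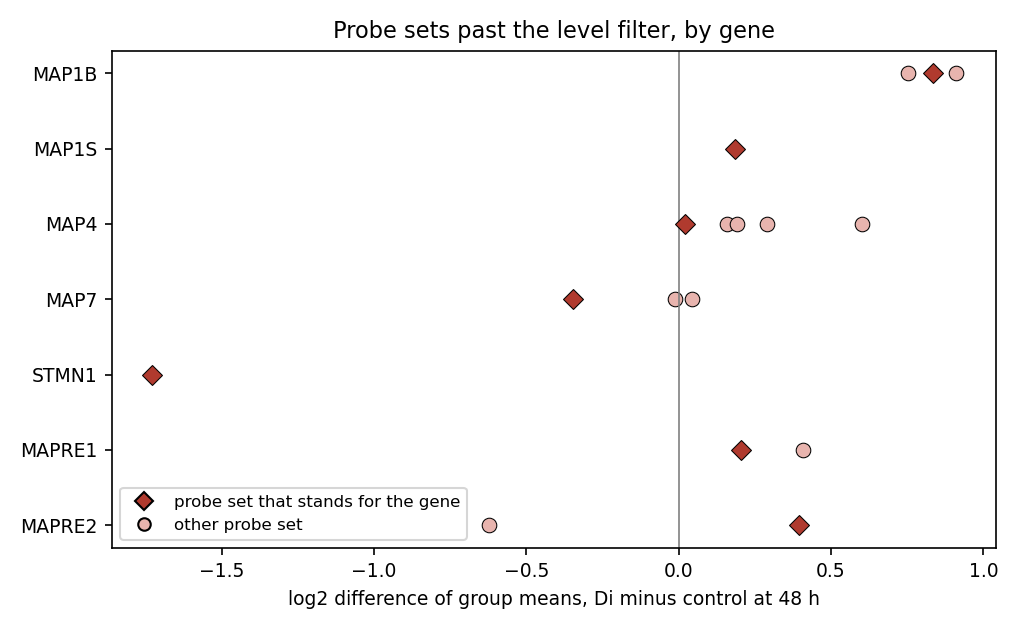
Difference of group means, Di minus control at 48 h (log2), for each probe set past the filter of the 7 measured members other than MAP2, with diamonds for the probe set that stands for the gene. The 3 MAP1B probe sets lie at 0.75 to 0.91, while those of MAPRE2 lie on both sides of 0 at 0.39 and -0.62.

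Other genes of the microtubule system were followed through 7 lists with 97 genes, of which 75 passed the filter. The lists were chosen with earlier results of these data known. At 48 h 13 of the 75 were higher and 28 lower under Di, or 54.7%, close to the 50.9% of all genes, with a median change of -0.099. Spindle MAPs, which build the mitotic spindle, fell in 9 of 10 cases, against 28% of all genes (median -1.27, 8 or 9 lower in each alternative). NUSAP1, which bundles spindle microtubules, fell by 2.19 on the log2 scale (SE 0.0657, limma adjusted p = 6.46e-10), the spindle motor KIF11 fell by 2.11 (adjusted p = 1.41e-07) and HMMR, a spindle assembly factor, fell by 1.90 (adjusted p = 1.71e-07). NUSAP1 averaged 8.32 ± 0.0793 in Di at 48 h, against 10.51 ± 0.0483 in control at 48 h (SD). Culture time went the same way, since in control at 12 h NUSAP1 averaged 11.95, KIF11 9.68 and HMMR 11.03. In control at 48 h KIF11 averaged 7.74 and HMMR 9.32. At 12 h 5 of the 10 spindle MAPs were lower under Di (2 to 5 in the alternatives), against 9.78% of all genes. The spindle genes and STMN1 lay lower together at 48 h, and the part of any shared change in the STMN1 difference was not tested.

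Among proteins of growing plus ends 6 of 18 were higher and 1 lower at 48 h (median 0.0691), where 50.9% of all genes were called and 22.9% were higher. CLIP4, a member of the CAP-Gly linker family that includes CLIP1, had 9.02, 9.25 and 9.39 in Di at 48 h, against 4.86, 5.44 and 5.35 in control at 48 h. The groups lay far apart and CLIP4 rose 16-fold (SE 0.298 on the log2 scale, limma adjusted p = 7.78e-07), which was the largest change of the 75 genes. At 12 h CLIP4 lay at 4.13, 2.80 and 3.90 in Di and at 3.01, 2.96 and 2.55 in control, mostly below the floor. CLIP1, a plus-end tracker that links microtubules to membranes, rose by 0.97 ± 0.242 (adjusted p = 0.00576), and CLIP2, its neuronal relative, by 0.88 ± 0.208 (adjusted p = 0.00413). CLIP2 had been lower under Di at 12 h (-0.95, adjusted p = 0.0142). In control CLIP1 averaged 8.79 at 12 h and 9.70 at 48 h, so it was higher with culture time as well. CLIP2 averaged 6.27 in control at 12 h and 5.65 in control at 48 h. KIF18B, a plus-end motor of mitosis, fell by 0.90 on the log2 scale at 48 h (adjusted p = 5.23e-05). In control KIF18B averaged 8.79 at 12 h and 6.49 at 48 h.

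Of the lattice-binding MAPs outside the 10 members 7 of 10 measured were lower and 1 higher at 48 h (median -0.578), where 28% of all genes were lower and 22.9% higher. DCLK1, a doublecortin-like kinase, fell by 0.98 (adjusted p = 3.77e-06, but -0.28 with the mean of both its probe sets), MAP9 fell by 0.87 (0.0016) and EML4 fell by 0.86 (1.28e-05, all on the log2 scale by limma). The 1 that rose was MAP1LC3B (0.94 ± 0.0818, adjusted p = 2.62e-06), which encodes a light chain named after MAP1 and is best known from autophagosomes. In control MAP1LC3B averaged 10.48 at 12 h and 11.80 at 48 h, so it was higher with culture time as well. Of the destabilising and severing proteins 3 of 8 were lower and 1 higher (median 0.00762), a share near the 50.9% of all genes called. STMN3, a stathmin relative, had 7.10, 7.20 and 7.27 in Di at 48 h, against 8.61, 8.71 and 8.84 in control at 48 h, and fell by 1.53 (SE 0.0798, adjusted p = 4.65e-08). In control STMN3 averaged 10.11 at 12 h and 8.72 at 48 h, so it was lower with culture time as well. The depolymerising kinesin KIF2C fell by 0.89 and the katanin subunit KATNA1 by 0.62, while FIGNL1, a severing-type ATPase, was 0.56 higher (adjusted p between 2.17e-05 and 5.57e-05). FIGNL1 had been lower under Di at 12 h (-0.23, adjusted p = 0.0445), a call lost with quantile normalisation. Its mean was 9.89 in control at 12 h, 8.52 in control at 48 h and 9.07 in Di at 48 h. In control KIF2C averaged 9.96 at 12 h and 7.97 at 48 h.

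The remaining lists moved little in common. Of the kinases that phosphorylate MAPs 2 of 9 were higher, TTBK2 (0.63, limma adjusted p = 0.0121) and MARK4 (0.54, 0.00589), and CDK5 was lower (-0.45, 0.0024), with a median of 0.187, beside 22.9% higher and 28% lower over all genes. CDK5, a kinase of tau and MAP2, had been higher at 12 h (0.45, adjusted p = 0.0139). Of the tubulin folding and modifying enzymes 2 of 17 were higher and 6 lower (median -0.189), also near the 50.9% called over all genes. TTL, which adds tyrosine to tubulin, fell by 0.60 (adjusted p = 5.48e-05) and SVBP, the partner of the opposing enzymes, by 0.41 (0.00451), while the tubulin cofactor TBCE rose by 0.43 (0.0015). The polyglutamylase TTLL7 (1.23, 0.00264) and the deacetylase SIRT2 (-0.49, 0.0024) were called with 1 probe set each and not with the mean of both (0.24 and -0.20, adjusted p = 0.307 and 0.295). With its called probe set TTLL7 averaged 5.41 in control at 12 h and 6.42 in control at 48 h, so it was higher with culture time as well. Of the 3 minus-end proteins CAMSAP1 rose (0.23, adjusted p = 0.0196) and NIN fell by 0.91 (5.68e-07, and -0.37 with the mean of its probe sets), with a median of 0.159 (50.9% of all genes called). CAMSAP1 lost its call without replicate 2 of Di at 48 h (0.0733), without replicate 1 of control at 48 h (0.064) and with the mean of its probe sets (0.0757). At 12 h, 2 of the 75 genes were higher and 14 lower (median -0.225), or 21.3% called, where 13.7% of all genes were called, 3.9% higher and 9.78% lower, while a fit to the 12 h arrays alone gave 6 lower.

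**Figure D5:**
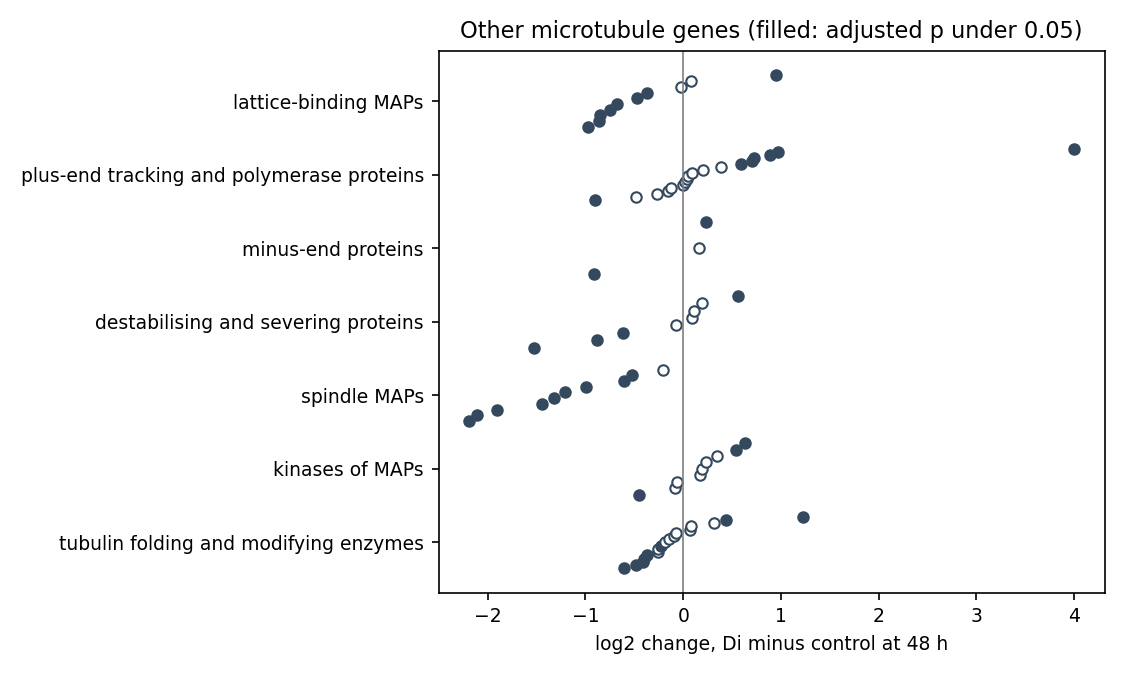
Log2 change, Di minus control at 48 h, of the 75 measured genes of 7 microtubule lists, 1 point per gene and filled points for an adjusted p under 0.05. Spindle MAPs lie below 0, and CLIP4 stands alone, 16-fold higher, among the plus-end proteins.

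Because MAP2 is used as a marker of neurons, 19 other neuronal markers were read beside it. Of these 10 passed the filter, with 3 higher (SYT1, ENO2 and INA) and 5 lower under Di at 48 h and a median change of -0.219, where 22.9% of all genes were higher and 28% lower. Under a replicate block 1 marker was called higher. The neurofilament gene NEFM had 2.96, 3.12 and 3.53 in Di at 48 h, against 5.12, 5.71 and 5.22 in control at 48 h. It fell by 2.15 in the fit (SE 0.196, limma adjusted p = 3.93e-06), with all 3 Di arrays below the floor. SNAP25, of the synaptic release machinery, fell by 1.17 (adjusted p = 4.97e-05). The neuronal tubulin TUBB3 fell by 0.40 (adjusted p = 0.0125), read with a probe set marked _x_at for possible cross-hybridisation. Of the 3 that were higher, INA rose by 0.30 (adjusted p = 0.0292). The sizes for SYT1 and ENO2 are not given here, so the values shown are mostly of markers that fell. The other 9 of the 19 markers, among them RBFOX3, SYP, DCX, GAP43 and ELAVL4, were below the floor in every array, at 3.67 or less. The summed level of the 19 genes was 11.53 to 11.60 in Di at 48 h, against 11.77 to 11.85 in control at 48 h (log2 of the sum). At 12 h the sum was 12.68 to 12.97 in Di and 12.71 to 12.79 in control, so it also fell with culture time. Such a sum follows the genes with the highest values, among them TUBB3, which averaged 10.10 in Di and 10.51 in control at 48 h. Any relation of the sum to MAP2 was not tested.

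The labelled cell type was only partly seen in its markers. Of 13 genes of mature proximal tubule 11 had a probe set of their own, and 1, the renal transcription factor PAX8, passed the filter. LRP2, CUBN, AQP1 and ANPEP, among the 10 below it, never exceeded 3.06. PAX8 was called higher under Di at 48 h (0.39), where 22.9% of all genes were higher. The summed level of the 11 genes was 9.73 to 9.96 in Di at 48 h, against 9.48 to 9.51 in control at 48 h (log2 of the sum). With 10 of the 11 below the filter, this sum mostly follows PAX8. At 12 h it was 9.45 to 9.64 in Di and 9.64 to 9.76 in control, so control at 12 h overlapped Di at 48 h. All 6 epithelial markers passed, with 3 lower under Di at 48 h (CDH1 -1.33, KRT19 -1.19 and EPCAM -0.65) and 1 higher (KRT18 0.20), where 28% of all genes were lower and 22.9% higher. With quantile normalisation 0 of the 6 were called higher. The summed level of the 6 epithelial markers was 13.69 to 13.82 in Di at 48 h, against 14.05 to 14.20 in control at 48 h (log2 of the sum). At 12 h it was 13.87 to 13.96 in Di and 13.87 to 13.95 in control. All 5 endothelial and leukocyte markers with a probe set were below the floor. Of 8 fibroblast and mesenchymal markers 4 passed (COL1A1, DCN, LUM and ACTA2), with 3 lower and 0 higher under Di at 48 h (28% of all genes lower), and 1 lower when no filter was set. The summed level of the 8 genes was 9.52 to 9.84 in Di at 48 h, against 10.48 to 10.57 in control at 48 h (log2 of the sum). At 12 h it was 11.38 to 11.63 in Di and 11.49 to 11.72 in control, so it also fell with culture time. The part of any of these marker groups in the differences of the members was not tested.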

How the data were processed

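Total RNA of HK-2 cells was made into biotin-labelled cRNA and read on an Affymetrix human array, 3 arrays in each of 4 groups. The authors deposited log2 expression values made with GCRMA, per the submitters' processing notes (version not given in the sources used here), which corrects background, normalises between arrays and summarises probe sets. No further normalisation was applied. Depth has no meaning for an array, and the number of arrays limits the precision.

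Probe sets were named through the platform's annotation, with symbols updated from RefSeq: of 54675, 41097 had 1 gene, 1801 several and 11777 none. After removal of 62 control probe sets, those above a log2 value of 4 in at least 3 arrays were kept (21715), and each gene was represented by 1. The means of the 4 groups were estimated for 10626 genes with limma 3.58.1 in R 4.3.3 (lmFit, eBayes, two-sided), with Benjamini-Hochberg adjustment over all tested genes and calls at an adjusted p under 0.05. The fit was tested on simulated data. Whether replicate numbers pair arrays is not stated in the labels, and p-values measure the spread between cultures described as biological replicates. Figures used matplotlib 3.10.9 in Python 3.11.15.

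The members, gene lists and motifs were chosen with earlier results of these data known. All members were named, with every MAP2 probe set, as were the 5 genes most correlated with MAP2. Of each list, up to 3 genes per direction were named, those with the largest called change at 48 h without overlap. NEFM, SNAP25, TUBB3 and the other markers were named after their values were seen. Alternatives were quantile normalisation, median centring, a higher floor of 6, no filter, robust moderation with a trend, the mean of a gene's kept probe sets, the arrays of 1 time alone, a replicate block and leaving out each array.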

Additional observations from a re-analysis of the deposited data

Results flagged for a closer look

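For 4 members other than MAP2 the change under Di at 48 h differed from that at 12 h by a test of the difference itself (limma, adjusted over all tested genes, n = 3 arrays per group, 38.3% of all genes called). STMN1 differed by -1.67 ± 0.113 (adjusted p = 1.22e-06), with no Di and control arrays overlapping at 48 h and overlap at 12 h. MAP1B differed by 0.65 ± 0.125 (adjusted p = 0.00175), and MAP4 by 0.43 ± 0.117 (adjusted p = 0.0131), with the MAP4 arrays apart at 12 h and overlapping at 48 h. MAP1S differed by 0.81 ± 0.271 (adjusted p = 0.0354), close to the floor and to the threshold.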

How the results depend on the processing

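The count of genes called at 12 h was 1453, came to 575 with the 12 h arrays alone, and ranged from 745 to 1457 when single arrays were left out, lowest without replicate 2 (745) and replicate 3 (778) of control at 12 h. The members other than MAP2 called at 12 h numbered 2 in place of 1 with those arrays alone, and 1 to 2 without single arrays, as MAP1S joined MAP4. The difference of MAP2 at 48 h was 5.14 with the mean of both probe sets and 4.78 to 4.98 without single arrays. MAPRE2 turned to -0.11 at 48 h with the mean of its probe sets, and its difference between the times to -0.17. MAP4 at 48 h, near 0, turned to -0.0058 with quantile normalisation and -0.0067 with median centring, and ranged from -0.036 to 0.10 without single arrays. Its control difference turned to 0.031 with quantile normalisation and ranged from -0.083 to 0.053, but the mean of all 5 probe sets gave -0.33 (adjusted p = 0.0011). The MAP7 difference between the times turned to 0.060 with the mean of its probe sets. Without single arrays MAP1S at 48 h ranged from -0.060 to 0.36, and the MAPRE1 difference between the times from -0.032 to 0.20. None of these reversed values but MAPRE2 at 48 h was called in the reported fit, and the cause was not tested. Of 1060 values for single genes, 1004 kept direction and side of the threshold.

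Same-numbered Di and control arrays did not deviate together (correlations from -0.264 to 0.154 over 6 pairs, 2 of them highest at their own number). With the replicate number as a block MAP7 was no longer called between the controls (0.26, adjusted p = 0.0796), and no other member changed its call. Among the neuronal markers the higher calls at 48 h numbered 1 with the block, in place of 3. MAPT, MAP1A and the second MAPRE2 probe set lie where signal over background limits any comparison.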
